A study of Mus musculus with 6 samples.

Results

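The miR-532 and miR-188 cluster is a row of microRNA (miRNA) hairpins inside the Clcn5 gene on the X chromosome. Its members were taken as the sense entries of the deposited count files named for Mir188, Mir362, Mir500, Mir501, Mir532 or Mir660, with both arms of each hairpin. Of these 6 names 5 were found, which gave 10 of the 1102 entries, and Mir660 is not analysed here. The series holds 6 small RNA libraries from hearts of wild-type male mice of the inbred strain C57BL/6J, all 18 weeks old, with no treatment or contrast group. The libraries are called heart 1 to heart 6 by the replicate numbers of the labels, which do not say outright that each came from its own animal. The labels give the tissue as the entire heart, while their extraction text speaks of frozen tips of the ventricles, so which part of the heart the RNA stands for is uncertain.

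A miRNA hairpin is cut from a primary transcript by Drosha in the nucleus and by Dicer in the cytoplasm. This leaves a duplex of a 5p and a 3p arm, of which usually 1 strand is kept by an Argonaute protein, and bases 2 to 8 of that strand, the seed, pair with target mRNAs. Hairpins in an intron can be made from the transcript of the host gene. Clcn5 encodes ClC-5, a chloride and proton exchanger of endosomes that is best known from the proximal tubule of the kidney. Among the cluster's miRNAs, miR-501 has been described in activated muscle stem cells and miR-188 in bone marrow stromal cells.

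The hairpins lie on the minus strand of chromosome X (GRCm38), within 10815 bases. In the direction of transcription they come as Mir532 (7248402 to 7248497), Mir188 (7247989 to 7248056), Mir362 (7241982 to 7242046), Mir501 (7241243 to 7241351) and Mir500 (7237683 to 7237774). Mir188 follows Mir532 after 345 bases, and Mir501 follows Mir362 after 630 bases, while 5942 bases separate Mir188 from Mir362 and 3468 bases separate Mir501 from Mir500. All 5 are intronic. They sit in 1 intron of 103648 bases (7213011 to 7316658), which 3 of the 5 annotated Clcn5 transcripts contain as their intron 2 or 3 (GENCODE M21). The remaining transcripts start downstream of the whole cluster and do not hold it.

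**Figure D1:**
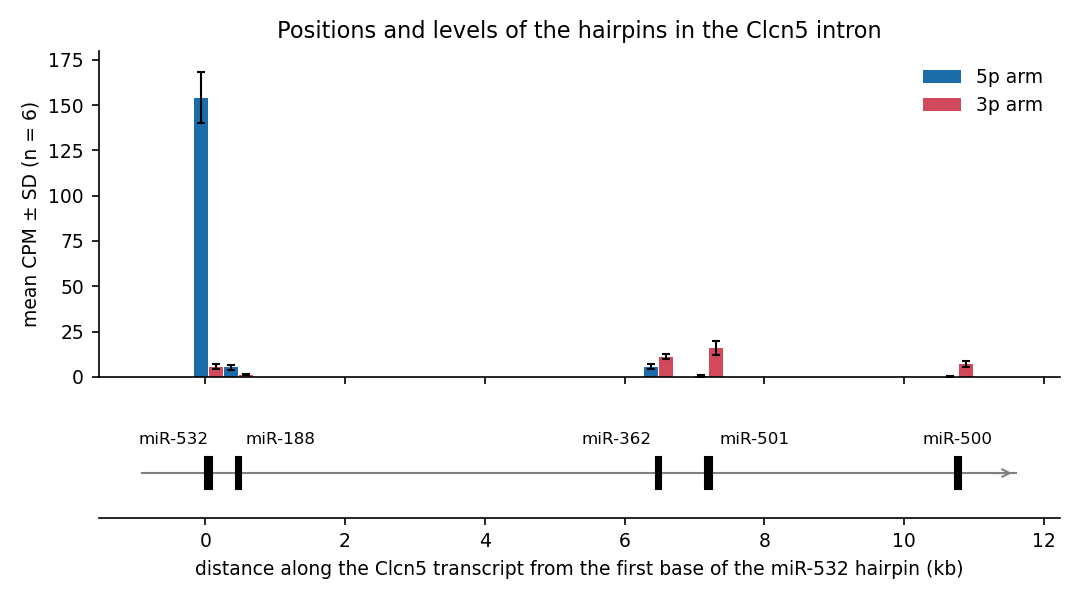
Bars give the mean CPM of the 5p and 3p arm of each hairpin with the SD over 6 hearts (linear axis from 0), placed by distance in kb along the host transcript from the first base of the miR-532 hairpin; black boxes below are the hairpins to scale, and bars of neighbours are set apart for legibility. miR-532-5p (154 CPM) lies far above the other arms, of which the highest is miR-501-3p at 16.0 CPM.

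The mature sequences show how the hairpins are related, and they are given with the seed in capitals, 5′ to 3′, from RefSeq (GRCm38.p6). The sequence table used here matched 9 of the 10 arms, all but miR-532-5p (7248456 to 7248477). The arms of miR-362, miR-501 and miR-500 come first, since they resemble each other.
miR-362-5p: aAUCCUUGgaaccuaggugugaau
miR-500-5p: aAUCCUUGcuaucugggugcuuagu
miR-501-5p: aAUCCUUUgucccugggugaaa
miR-500-3p: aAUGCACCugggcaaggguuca
miR-501-3p: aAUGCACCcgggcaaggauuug
miR-362-3p: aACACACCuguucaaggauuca
miR-532-3p: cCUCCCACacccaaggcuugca
miR-188-3p: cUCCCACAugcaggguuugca
miR-188-5p: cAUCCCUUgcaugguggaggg

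miR-500-3p and miR-501-3p share the seed AUGCACC and 18 of 22 bases. Counted from the 5′ end of miR-500-3p, they differ by U9C, G18A, C21U and A22G. How the counting treated mismatches and reads with several matches is not given in the sources used here, so the division of reads between these arms is uncertain. miR-362-5p and miR-500-5p share the seed AUCCUUG, and in miR-501-5p the last seed base differs (G8U against either). miR-532-3p and miR-188-3p match in 17 of 21 bases when shifted by 1 base, so that their seeds, CUCCCAC and UCCCACA, are offset. The 6 arms of miR-362, miR-501 and miR-500 start with A, and the 3 sequenced arms of miR-188 and miR-532 start with C.

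The hairpins of the downstream trio are printed to show the shared layout, with both mature arms in capitals. From 13 to 15 bases lie between the arms of these 3 hairpins, against 18 in miR-188.
miR-362: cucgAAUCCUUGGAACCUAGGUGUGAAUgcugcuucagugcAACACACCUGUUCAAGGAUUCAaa
miR-501: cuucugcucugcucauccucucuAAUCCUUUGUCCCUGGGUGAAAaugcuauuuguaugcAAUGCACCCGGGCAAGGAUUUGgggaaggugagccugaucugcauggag
miR-500: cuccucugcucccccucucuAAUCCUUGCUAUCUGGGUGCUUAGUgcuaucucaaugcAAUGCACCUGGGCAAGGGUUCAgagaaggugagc

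Outside the cluster, 1 other miRNA among the 774 of the files with a sequence in that table shared a seed with 1 of these 9 arms, and the seed of miR-532-5p was not compared. This was miR-329-3p, of an imprinted miRNA locus, with the seed ACACACC of miR-362-3p. It stood at 1.03 ± 0.477 CPM (SD, n = 6) in reads, below miR-362-3p at 11.1 ± 1.32 CPM.

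Library totals ran from 3966169 to 6007322 counts. Levels are given as CPM, counts scaled to a total of 1000000, on which 10 reads are worth 1.66 to 2.52. A count of 0 (limit 3 counts) allows up to between 0.499 and 0.756 CPM. For each of the 15 library pairs the counts differed by more than sampling noise (chi-square per degree of freedom 48.2 to 259). All p-values over hearts cover the spread between these 6 libraries, which may be technical in part. The muscle miRNA miR-133a-3p stood at 83533 to 96510 CPM and the myosin-encoded miR-208a-3p at 879 to 1608 CPM, so heart markers were present in each library. In whole tissue, fewer cells of a type and less RNA per cell cannot be told apart. All 5 markers of other tissues (listed as miR-122a-5p, miR-124a-3p, miR-217-5p, miR-375-3p and miR-182-5p) were highest in heart 4, for example miR-182-5p at 208 CPM there and 24.8 to 53.3 CPM elsewhere. Blood-cell miRNAs differed between hearts too. Of the leukocyte miRNAs, miR-142a-5p ran from 906 CPM (heart 6) to 1667 (heart 1) and miR-223-3p from 109 (heart 6) to 176 (heart 1). In turn, miR-150-5p ran from 783 CPM (heart 5) to 1236 (heart 4). Of the red-cell miRNAs, miR-451a ran from 1907 CPM (heart 4) to 5266 (heart 1) and miR-144-3p from 225 (heart 6) to 533 (heart 2). The part of all these RNAs in the results was not tested. CPM values are on the library total unless TMM scaling, edgeR's correction for library composition, is named. The reads have no molecular identifiers, so intervals and limits cover counting error only.

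The cluster was a small part of the heart profile, and most of its reads came from its first hairpin. Summed over the 10 arms, it stood at 187 CPM in heart 2, the lowest, and at 220 CPM in heart 5, the highest, with a median of 209.5 CPM. The mean was 206.5 ± 14.3 CPM (SD, n = 6), or 0.0207% of the counts, and the highest heart was 1.17 times the lowest. The cluster held 2.11% ± 0.244 of the reads counted at entries on the X chromosome, of which male mice carry a single copy. How reads with several matches were placed is not given, so this share and the X-chromosome rank below are uncertain. miR-532-5p ranked 108 of 977 mature miRNAs by mean CPM and 7 among the 97 mature miRNAs from the X chromosome. The other arms ranked between 224 (miR-501-3p) and 621 (miR-500-5p).

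miR-532-5p, the 5p strand of the first hairpin, carried 74.8% of the pooled cluster reads. Its level was lowest in heart 2 at 134.9 CPM, had a median of 157.5 CPM and was highest in heart 3 at 171 CPM (154 ± 14.0 CPM, SD, n = 6). The hearts differed by 1.27 times at most. Its partner arm miR-532-3p ran from 4.03 CPM in heart 2 through a median of 5.19 to 7.99 CPM in heart 5. The arms did not overlap in any heart.

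miR-188, the next hairpin and the nearest neighbour of miR-532, had the lowest mean of the 5 hairpins. miR-188-5p ran from 3.75 CPM in heart 6 through a median of 4.95 to 7.31 CPM in heart 4. miR-188-3p had 3 to 11 reads in each library and stood between 0.535 CPM in heart 6 and 1.83 CPM in heart 5. The 2 arms did not overlap either, but no arm of miR-188 came near the level of miR-532-5p 345 bases upstream of it.

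miR-362 opens the downstream trio and was the hairpin with the most even arms. miR-362-3p ran from 9.45 CPM in heart 1 through a median of 11.4 to 12.7 CPM in heart 2. miR-362-5p ran from 4.26 CPM in heart 3 through a median of 5.65 to 7.49 CPM in heart 5. Each of the 6 hearts had more 3p than 5p reads, and the arms did not overlap.

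miR-501-3p was the second arm of the cluster by level. It stood at 9.995 CPM in heart 6, at a median of 16.0 and at 20.4 CPM in heart 4, a 2.04-fold range. miR-501-5p had 14 reads in all, from 0 in heart 1 to 5 in heart 6 (pooled 0.474 CPM, exact Poisson 95% interval 0.259 to 0.795). The heart with the fewest reads of the 3p arm thus had the most reads of the 5p arm, and at these counts no difference between hearts in arm share was detected.

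miR-500-3p, the arm that shares its seed with miR-501-3p, ran from 4.28 CPM in heart 6 through a median of 7.203 to 8.82 CPM in heart 1. Heart 6 was again the lowest. miR-500-5p had 5 reads in all, in hearts 1, 2 and 6, and 0 in the other 3 (pooled 0.169 CPM, interval 0.0550 to 0.395). Together miR-500-3p and miR-501-3p held 23.0 ± 5.16 CPM of reads with the seed AUGCACC, from 14.3 CPM in heart 6 to 28.5 CPM in heart 4.

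**Figure D2:**
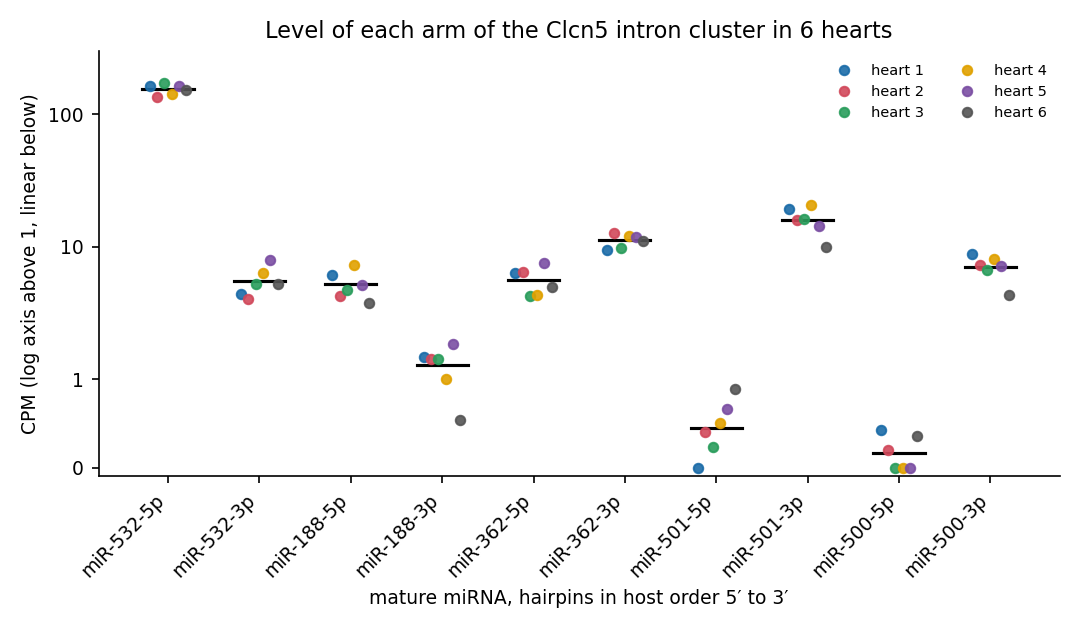
Each point is the CPM of 1 arm in 1 heart (log axis above 1, linear below 1), and black lines are means over 6 hearts; hairpins stand in the order of the host transcript. miR-532-5p lies at 134.9 CPM or more in each heart, while the lesser arms of miR-501 and miR-500 lie below 1 CPM, with 0 reads in some hearts.

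The hairpins of this 1 intron differed widely in reads. With both arms summed, miR-532 stood at 159.6 ± 14.4 CPM, miR-362 at 16.8 ± 2.08, miR-501 at 16.4 ± 3.47, miR-500 at 7.197 ± 1.54 and miR-188 at 6.49 ± 1.45 CPM. The ratio between different miRNAs is one of reads, since adapter ligation favours some ends over others. Of the 4 neighbours in this order, 2 differed beyond the spread between hearts by an exact sign-flip permutation test (two-sided, not adjusted, where 6 hearts allow no p below 0.0312).

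miR-532 exceeded miR-362 by 7.26 to 12.6 times, with a geometric mean ratio of 9.44 (higher in 6 of 6 hearts, exact p = 0.0312). miR-501 exceeded miR-500 by 2.07 to 2.59 times, mean 2.25 (6 of 6 hearts, exact p = 0.0312), which was the narrowest ratio among these 4 neighbours on the log2 scale (SD 0.13). That ratio depends on the uncertain division of reads between their 3p arms. miR-362 and miR-501 could not be ordered, since miR-362 was higher in 3 of 6 hearts (mean ratio 1.03, exact p = 0.75), and by the stronger arm alone the order was the opposite, with a log2 ratio of -0.48 (exact p = 0.0625). miR-500 was above miR-188 in 5 of 6 hearts (mean ratio 1.11, exact p = 0.0938), and the 3p arm of miR-500 was above the 5p arm of miR-188 by a log2 ratio of 0.42 (exact p = 0.0312).

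miR-532 held the greater share of the cluster reads in each heart. It held 73.2% in heart 4 to 81.5% in heart 6, and 77.5% of the pooled reads (exact Clopper-Pearson 95% interval 76.4% to 78.5%). The 2 upstream hairpins together held 80.4% ± 2.80 and the downstream trio 19.6% ± 2.80 (SD, n = 6). Without miR-532 the cluster stood at 46.9 ± 6.49 CPM.

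The preferred arm changed along the intron. The upstream pair gave mainly 5p reads and the downstream trio mainly 3p reads, in each of 6 hearts. Of the upstream pair's reads, nearly all from miR-532, 95.9% ± 0.840 were 5p, against 80.3% ± 6.18 for miR-188 alone. Of the trio's reads 84.4% ± 3.795 were 3p, against 66.6% ± 5.27 for miR-362 alone. With the edgeR quasi-likelihood test over 213 hairpins, 4 of the 5 members passed an adjusted p of 0.05 with at least a 2-fold ratio, 2 in each direction. Over all hairpins 89.2% passed, 48.8% with more 5p and 40.4% with more 3p reads, so a called arm is the rule in this tissue. The median fold was 27.8 for the 5 members and 31.8 for all hairpins tested.

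miR-532 gave 27.6 reads of 5p per read of 3p (exact binomial 95% interval 23.7 to 32.5), a log2 ratio of 4.80 ± 0.15 (SE, n = 6, edgeR adjusted p = 3.06e-160). miR-188 gave 3.97 reads of 5p per read of 3p (2.77 to 5.83), a log2 ratio of 1.98 ± 0.28 (edgeR adjusted p = 2.67e-12). Their intervals did not overlap, although both hairpins favoured 5p. These p-values, and the SEs, which were worked back from the edgeR test, rest on a spread that edgeR largely pooled over hairpins. With the 6 hearts alone each member reached the smallest possible exact p of 0.0312 (sign-flip permutation). The SD of the log2 ratio over the 6 hearts was 0.34 for miR-532, 0.55 for miR-188 and 0.34 for miR-362. It was wider for miR-501 (1.40) and miR-500 (1.24).

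miR-500 gave 41.0 reads of 3p per read of 5p (17.3 to 128), a log2 ratio of 5p over 3p of -5.16 ± 0.39 (edgeR adjusted p = 1.88e-36). miR-501 gave 32.9 reads of 3p per read of 5p (19.4 to 60.7), with a log2 ratio of -4.96 ± 0.28 (edgeR adjusted p = 5.89e-62). Their intervals overlapped widely, so these paralogous hairpins could not be ranked by arm ratio. miR-362 gave 1.94 reads of 3p per read of 5p (1.61 to 2.35), a log2 ratio of -0.97 ± 0.18 (edgeR adjusted p = 1.41e-07, higher 3p in 6 of 6 hearts). It passed the p threshold and missed the 2-fold minimum, and it passed both without heart 1 (log2 ratio -1.05) or without heart 5 (-1.05).

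**Figure D3:**
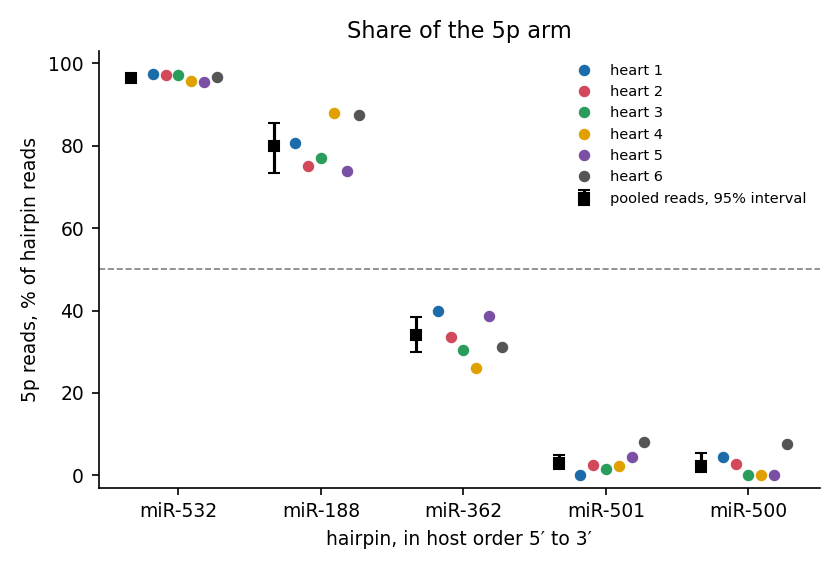
Points are the 5p reads of a hairpin as a percentage of its reads in each of 6 hearts, and squares are pooled reads with exact 95% binomial intervals; the dashed line marks equal arms. miR-532 (95.3% to 97.4%) and miR-188 (73.8% to 87.9%) lie above the line and miR-362 (26.2% to 40.0%), miR-501 and miR-500 below it in each heart.

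The arm share of a hairpin was not found to differ between hearts. The 5p share was 96.5% ± 0.823 for miR-532, 80.3% ± 6.18 for miR-188, 33.4% ± 5.27 for miR-362, 3.16% ± 2.86 for miR-501 and 2.49% ± 3.16 for miR-500 (SD, n = 6). By a chi-square test of the 2 arms in 6 libraries, 0 of the 5 members had an adjusted p under 0.05 and 0 an unadjusted one, against 28.6% of 213 hairpins called by adjusted p. The lowest adjusted p was 0.203, for miR-501. With 24 to 116 reads of miR-188, miR-362, miR-501 or miR-500 in a library, only large differences in share were detectable at this depth.

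For most member arms no variation between hearts beyond counting error was detected. Of 7 arms with a mean of at least 10 reads, 2 passed an adjusted p of 0.05 (chi-square test of the 6 counts after TMM scaling), against 70.2% of 349 miRNAs in the table. Of the 141 miRNAs with a mean under 100 reads 42.6% passed. All tested arms but miR-532-5p (mean 760 reads) belong to those 141, and of these arms only miR-501-3p passed. miR-532-5p was 1 of the 2 arms that passed, with a coefficient of variation (CV) of 9.26% where counting alone gives about 3.63% (adjusted p = 4.13e-05). After TMM scaling it was lowest in heart 4 at 132.6 CPM, then heart 2 at 140 CPM, and lay between 158 and 169 CPM in the other 4. miR-501-3p was the other, with a CV of 20.7% where counting gives 11.4% (adjusted p = 0.00689). Heart 6, at 10.6 CPM after TMM scaling against 13.8 to 19.2 CPM in the others, was the lowest, and without heart 6 only 1 member arm passed. The other 5 arms tested had adjusted p-values between 0.184 (miR-532-3p) and 0.561 (miR-362-3p), at CVs of 12.7% to 23.6% with 13.5% to 19.9% from counting. With both arms summed, 2 of the 5 hairpins passed, miR-532 (adjusted p = 3.91e-05) and miR-501 (adjusted p = 0.0218), against 75.2% of 246 hairpins. The 3 arms left out, miR-188-3p, miR-501-5p and miR-500-5p, had too few reads.

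No co-variation of the 5 hairpins over the hearts passed adjustment. Of the 10 pairs 3 had a positive Pearson r of log2 CPM after TMM scaling, with a median r of -0.27, and over all 30135 pairs of 246 hairpins the median was -0.00. The sign of the members' median depends on the scaling, since on library totals it was 0.051. After TMM scaling and without heart 4 the median was -0.055, of the same sign but nearer to no correlation. Only miR-532 had a mean of at least 100 reads, so the pairs are given at a mean of at least 10 reads, where counting error is a large part of each value. After adjustment over all 30135 pairs, 0 of 10 member pairs passed, with a smallest adjusted p of 0.673 (exact permutation test of 720 orders, two-sided). Unadjusted, 3 of 10 had an exact p under 0.05 by Pearson and 0 by Spearman, and 3.61% of all pairs had such a p with a positive r.

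Those 3 were the pairs among miR-188, miR-501 and miR-500. For miR-501 and miR-500 Pearson's r was 0.90 (permutation p = 0.0167 exact, 0.673 adjusted) and Spearman's rho 0.77 (0.103 exact, 0.836 adjusted). Leaving out hearts 4 and 6, the extremes of miR-501, gave r = 0.87. Heart 1, where miR-500 was highest, was kept in that fit. For miR-188 and miR-501 r was 0.88 (permutation p = 0.0208 exact, 0.679 adjusted) and rho 0.77 (0.103 exact, 0.836 adjusted). With hearts 4 and 6 left out r was 0.42. These 2 hearts were left out as the farthest from the median, so a lower r does not show that the relation rests on them. For miR-188 and miR-500 r was 0.84 (permutation p = 0.0458 exact, 0.712 adjusted) and rho 0.54 (0.297 exact, 0.907 adjusted), and r was 0.65 with the same hearts left out.

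Heart 6 was the lowest in all 3 of these hairpins. After TMM scaling the sum of miR-188, miR-501 and miR-500 was 21.1 CPM in heart 6 and 28.2 to 35.9 CPM in the other 5. Without heart 6 the 3 correlations were 0.71 (exact p = 0.167), 0.65 (exact p = 0.242) and 0.52 (exact p = 0.408), in the order given above. Without heart 4 they were 0.96 (exact p = 0.025), 0.84 (exact p = 0.0917) and 0.90 (exact p = 0.0667). With any 1 heart left out, the p of miR-501 and miR-500 was 0.05 or more only without heart 6, while that of miR-188 and miR-501 was 0.05 or more without heart 1, 3, 4 or 6 and that of miR-188 and miR-500 without heart 1, 3, 4, 5 or 6. Those fits hold 5 hearts. miR-532 stood at 168 CPM and miR-362 at 17.1 CPM in heart 6, both above their means of 159.6 and 16.8 CPM after TMM scaling. On library totals both were below their means in heart 6, miR-532 at 158.1 against 159.6 CPM and miR-362 at 16.1 against 16.8 CPM. The pair miR-501 and miR-500 may share reads by sequence, as described above, and the part of this in their r was not tested.

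For miR-532 and each of the other hairpins r was below 0 over the 6 hearts after TMM scaling, and for 2 of them the sign turned with 1 heart left out. It was -0.37 with miR-188, its nearest neighbour, -0.32 with miR-362, -0.53 with miR-501 and -0.36 with miR-500, with exact p-values between 0.269 and 0.510. On library totals the r of miR-532 was 0.081 with miR-188, -0.47 with miR-362, -0.16 with miR-501 and -0.078 with miR-500. Against the sum of the other 4 hairpins, which has a mean of 229 reads, r was -0.60 (exact p = 0.176, adjusted p over 4 such comparisons 0.706) and rho -0.60 (exact p = 0.242, adjusted p = 0.919), and r was -0.45 without hearts 2 and 4. miR-362 had an r of -0.26 with miR-188, -0.28 with miR-501 and -0.02 with miR-500. The r of miR-532 with miR-188 was 0.031 without heart 4. With miR-362 it was 0.015 without heart 2 and -0.79 without heart 4 (exact p = 0.1). The r of miR-362 with miR-500 was above 0 without heart 1, 4, 5 or 6, at most 0.15. None of these p-values was under 0.05, which does not show that the hairpins vary independently.

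**Figure D4:**
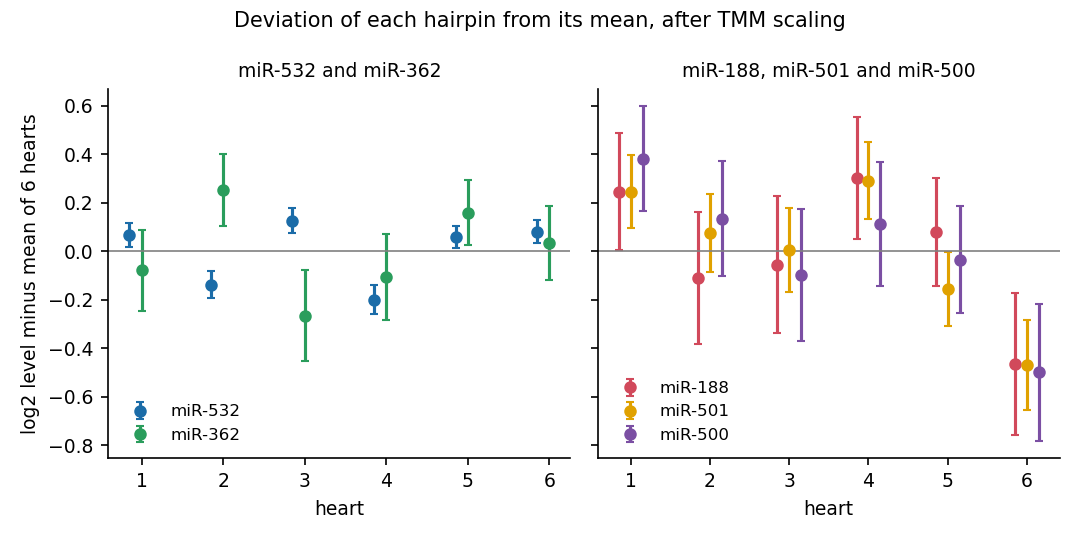
Points are the log2 level of each hairpin (both arms, TMM scaling) minus its mean over 6 hearts, and bars are counting error of 1 standard error from the reads of that library. miR-188, miR-501 and miR-500 (right) are all lowest in heart 6, where miR-532 and miR-362 (left) are slightly above their means. On library totals miR-532 and miR-362 were slightly below their means in heart 6.

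The miRNA clusters chosen by name for comparison were more abundant in these libraries. The Mcm7 intron cluster of miR-106b, miR-93 and miR-25, a paralog of the miR-17-92 cluster, stood at 1772 ± 105 CPM and exceeded the Clcn5 cluster by 8.09 to 9.30 times (higher in 6 of 6 hearts, exact sign-flip permutation p = 0.0312). The cluster of miR-322 and miR-503, which is also X-linked, stood at 1702 ± 113 CPM and exceeded it by 7.16 to 9.45 times (6 of 6 hearts, exact permutation p = 0.0312). Within-cluster correlations are set beside each other without a test of their difference. The median r was 0.74 over 3 pairs in the Mcm7 cluster and 0.47 over 15 pairs in the X-linked cluster, against -0.27 over 10 pairs in the Clcn5 cluster, whose hairpins had fewer reads. All 3 clusters held hairpins of both arm preferences. miR-25, miR-503 and miR-542 were called for more 3p reads, and miR-106b, miR-93, miR-322, miR-351, miR-450a and miR-450b for more 5p reads.

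Over 207 mature miRNAs outside the cluster with means of 100 reads or more, the 5 whose level followed the summed cluster most closely over the 6 hearts were miR-181c-5p (r = 0.88), miR-152-5p (0.86), miR-148a-5p (0.81), miR-9-5p (0.78) and miR-421-3p (0.77). They were picked for the highest r, after TMM scaling. Over all those ranked r ran from -0.94 to 0.88, with a median of 0.01. miR-181c-5p, for example, stood at 1601 CPM in heart 1 and 1299 CPM in heart 4 after TMM scaling, where the cluster stood at 218 and 189 CPM. miR-532-5p makes up most of the summed cluster, and no test was made of these likenesses, which were ranked for their r.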

How the data were processed

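Small RNA was sequenced in 6 heart libraries of 1 group. The files hold whole-number counts per miRNA entry, deposited by the authors without scaling, per the file headers and values. The submitters' processing notes name GRCm38, DESeq and edgeR, and neither an aligner nor a counting rule is given in the sources used here. Entries of 1 mature miRNA were summed, and 38 of 76 antisense entries, none of them of a member, were left out. Arms were compared with edgeR 4.0.16 (TMM, quasi-likelihood, library as a block, Benjamini-Hochberg over 213 hairpins, mean of at least 10 reads), and DESeq2 1.42.0 was an alternative. Counting error was tested by chi-square, and order and co-variation by exact permutation. Co-variation was planned at a mean of at least 100 reads, which only 1 member hairpin reaches, so 10 was used. Scripts were tested on simulated data. All members found were named, with the 5 miRNAs most correlated with the cluster. Members, lists and tests were chosen with earlier results of these data known.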

Additional observations from a re-analysis of the deposited data

How the results depend on the processing

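The level of the cluster was 206.5 CPM and 203.8 to 210.3 CPM with each heart left out in turn, and 46.9 CPM without miR-532, a setting chosen after seeing the data. At a mean of at least 100 reads only 1 hairpin remained for the arm ratio, with 1 call, and leaving out a heart gave 4 to 5 calls. Counting error was exceeded by 1 member arm at that minimum and by 1 without heart 6, and leaving out a heart gave 1 to 2. The median r of the hairpin pairs was -0.27. It was 0.051 on library totals, -0.051 without hearts 4 and 5, and -0.27 to -0.055 (without heart 4) with each heart left out, while miR-532 against the other 4 summed gave -0.60, a comparison added after seeing the data. The log2 ratio of miR-362 over miR-501 was 0.050, and it was -0.48 by the more abundant arm alone. Its sign also turned without heart 5 (-0.013) and without heart 6 (-0.051). The cause of these shifts was not tested. Co-variation at means of 100 and 500 reads gave no value, since fewer than 2 members remained. The arm ratios were paired within libraries, and without the library as a block the same number of members, 4, was called. Read depth limits the arms with under 10 reads most.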
